A study of Homo sapiens with 24 samples.

Results

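The 9 genes described here encode the machinery with which human cells copy past or prime beyond damaged DNA, together with polymerase theta. They are REV3L, MAD2L2, REV1, POLH, POLK, POLI, PRIMPOL, RAD18 and POLQ, and they were taken by name from the 28277 gene rows of each count table. All 9 were present in both tables and all 9 passed the filter on low counts, which left 15882 genes in the first table and 17020 in the second. RNA-seq was performed on PEO1 and PEO4, high-grade serous ovarian carcinoma lines established from 1 patient before and after resistance to chemotherapy including cisplatin. Pair A holds BRCA2-deficient PEO1 and BRCA2-proficient PEO4, both untreated and labelled as wild type. Pair B holds a PEO1 derivative labelled BRCA2+, called PEO1 BRCA+ here, which regained BRCA2 function by a spontaneous reversion mutation, and PEO4, whose genotype label is again wild type. Cells of pair B were left untreated or kept for 2 or 6 h in medium with 5 µM PDS, pyridostatin, a small molecule that binds G-quadruplexes (G4s). Each of the 8 conditions has 3 libraries, which the design describes as biological replicates, so pair A has 6 libraries and pair B has 18. No vehicle-treated group is among these samples, and each line stands for 1 patient, so line and drug resistance cannot be told apart from any other difference between the lines.

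Translesion synthesis lets replication continue when a replicative polymerase stalls. RAD18 ubiquitinates the sliding clamp PCNA, modified PCNA recruits inserter polymerases such as polymerases eta (POLH), kappa (POLK) and iota (POLI), and REV1 together with polymerase zeta (catalytic subunit REV3L, accessory subunit MAD2L2, also named REV7) extends from the inserted base. PRIMPOL instead restarts synthesis downstream of a block, and polymerase theta (POLQ) joins broken ends through short homologies, a pathway on which cells without homologous recombination are known to rely. G4s are folded guanine-rich stretches that can themselves block a fork, and REV1 and PRIMPOL have been tied to replication past them.

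Total counts on genes lay between 32528913 and 63882077 in pair A, between 18699929 and 22375644 in the 6 untreated libraries of pair B, and between 33260167 and 43713947 in its 12 treated libraries. The share of counts on ribosomal RNA genes was 0.217% to 0.474% in untreated and 0.0163% to 0.0369% in treated libraries of pair B, so depth and this share moved with treatment and cannot be told apart from it. Of 10 ovarian carcinoma markers, 9 were at 1 CPM (a gene's count scaled to the library's total) or more in every condition, and of 9 markers of other cell types 1 or 2 were, with summed levels of 1.85 to 10.5 CPM. BRCA2 RNA itself, which does not report on its mutations, was higher in PEO4 than in PEO1 in pair A (log2 fold change 0.70, adjusted p = 9.73e-04), and the test found no difference between the untreated lines of pair B (log2 fold change -0.013, adjusted p = 0.930). All p-values come from the quasi-likelihood test of edgeR and were adjusted over every gene tested by the Benjamini-Hochberg procedure, a gene was called at an adjusted p under 0.05, and errors of log2 fold changes are standard errors. CPM are scaled by TMM within each pair, so levels of pair A and pair B were not compared by test.

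Because PDS binds G4s, the promoters of the 9 genes were searched for 4 runs of at least 3 G (GGG) separated by 1 to 7 bases, on both strands. The windows, from RefSeq on GRCh38.p14, run from 250 bases before to 50 after each start. A match was present for 6 of the 9 genes, against 27.9% of 27305 genes and 25.0% of 35116 windows, and the members' windows had GC contents of 50.3% to 80.7% against a median of 58.7% for all windows. REV3L and MAD2L2 each have 2 start windows, both with a match, of which the more upstream one is printed. The windows of POLQ, POLI and RAD18 held no match to these letters. The 250 bases before the start are printed 5′ to 3′ on the strand of the gene for the 6 genes with a match, to show where in the promoter the runs lie, and capitals mark the match. The start is that of 1 transcript: the printed windows of MAD2L2 and POLK lie wholly, and that of REV1 partly, inside the annotated gene. In the printed windows of POLH, REV1 and MAD2L2 the runs of G lie on the gene's own strand, and in POLK, REV3L and PRIMPOL they lie on the opposite strand, so the capitals show runs of C. A match to letters describes the sequence and does not show that a G4 folds there. The 27305 genes are all those with a window, whether or not they were tested here. Whether matches go with the changes after PDS was not tested. The windows are REV3L at chr6:111483712-111483961, minus strand, MAD2L2 at chr1:11691560-11691809, minus strand, REV1 at chr2:99490018-99490267, minus strand, POLH at chr6:43575935-43576184, plus strand, POLK at chr5:75511641-75511890, plus strand and PRIMPOL at chr4:184649488-184649737, plus strand.
REV3L: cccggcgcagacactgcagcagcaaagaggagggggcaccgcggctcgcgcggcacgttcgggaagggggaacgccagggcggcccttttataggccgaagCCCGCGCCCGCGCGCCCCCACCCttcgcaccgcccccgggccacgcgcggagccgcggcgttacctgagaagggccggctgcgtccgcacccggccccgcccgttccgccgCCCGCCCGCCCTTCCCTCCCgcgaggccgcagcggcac
MAD2L2: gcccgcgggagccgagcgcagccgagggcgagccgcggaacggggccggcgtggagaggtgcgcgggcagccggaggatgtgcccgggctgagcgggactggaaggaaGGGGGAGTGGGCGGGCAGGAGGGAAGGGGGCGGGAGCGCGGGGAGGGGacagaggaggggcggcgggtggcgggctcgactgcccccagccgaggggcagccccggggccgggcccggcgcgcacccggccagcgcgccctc
REV1: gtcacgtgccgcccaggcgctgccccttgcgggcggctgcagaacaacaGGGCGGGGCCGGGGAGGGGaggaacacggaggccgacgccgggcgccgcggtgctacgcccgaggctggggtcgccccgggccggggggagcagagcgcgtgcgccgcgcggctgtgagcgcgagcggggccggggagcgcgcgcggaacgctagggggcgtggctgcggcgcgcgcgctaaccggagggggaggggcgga
POLH: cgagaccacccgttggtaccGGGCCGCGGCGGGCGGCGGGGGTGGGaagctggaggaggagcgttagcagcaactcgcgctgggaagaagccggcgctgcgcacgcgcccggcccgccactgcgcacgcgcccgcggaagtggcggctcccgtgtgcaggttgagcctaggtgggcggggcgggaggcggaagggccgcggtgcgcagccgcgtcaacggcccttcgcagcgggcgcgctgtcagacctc
POLK: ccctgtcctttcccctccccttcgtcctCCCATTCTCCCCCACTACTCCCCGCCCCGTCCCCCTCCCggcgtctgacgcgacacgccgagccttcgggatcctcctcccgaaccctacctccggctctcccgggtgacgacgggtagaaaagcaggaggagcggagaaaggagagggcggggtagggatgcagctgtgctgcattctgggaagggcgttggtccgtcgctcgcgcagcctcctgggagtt
PRIMPOL: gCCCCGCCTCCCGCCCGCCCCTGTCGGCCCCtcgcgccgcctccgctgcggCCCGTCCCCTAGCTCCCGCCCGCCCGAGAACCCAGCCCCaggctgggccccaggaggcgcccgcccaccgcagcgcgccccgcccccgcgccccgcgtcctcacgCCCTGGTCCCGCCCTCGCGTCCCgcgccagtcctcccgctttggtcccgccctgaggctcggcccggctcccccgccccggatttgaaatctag

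Per kilobase of the canonical GENCODE transcript, MAD2L2 had the highest level of the 9 genes in all 8 conditions, at 24.8 CPM per kb in untreated PEO1 BRCA+ and 18.1 in untreated PEO4. RAD18 followed in untreated PEO1 BRCA+ with 9.40 CPM per kb, and REV3L in untreated PEO4 with 14.1. POLK was lowest in both, at 1.36 and 0.914 CPM per kb. The order depends on the length used. When all annotated exons were counted as the gene's length, a choice made after seeing the data, MAD2L2 dropped to 4.81 and 3.51 CPM per kb, and RAD18 led in untreated PEO1 BRCA+ (7.88) and REV3L in untreated PEO4 (12.1). The remaining levels are given in CPM, which compare a gene with itself across libraries.

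**Figure D1:**
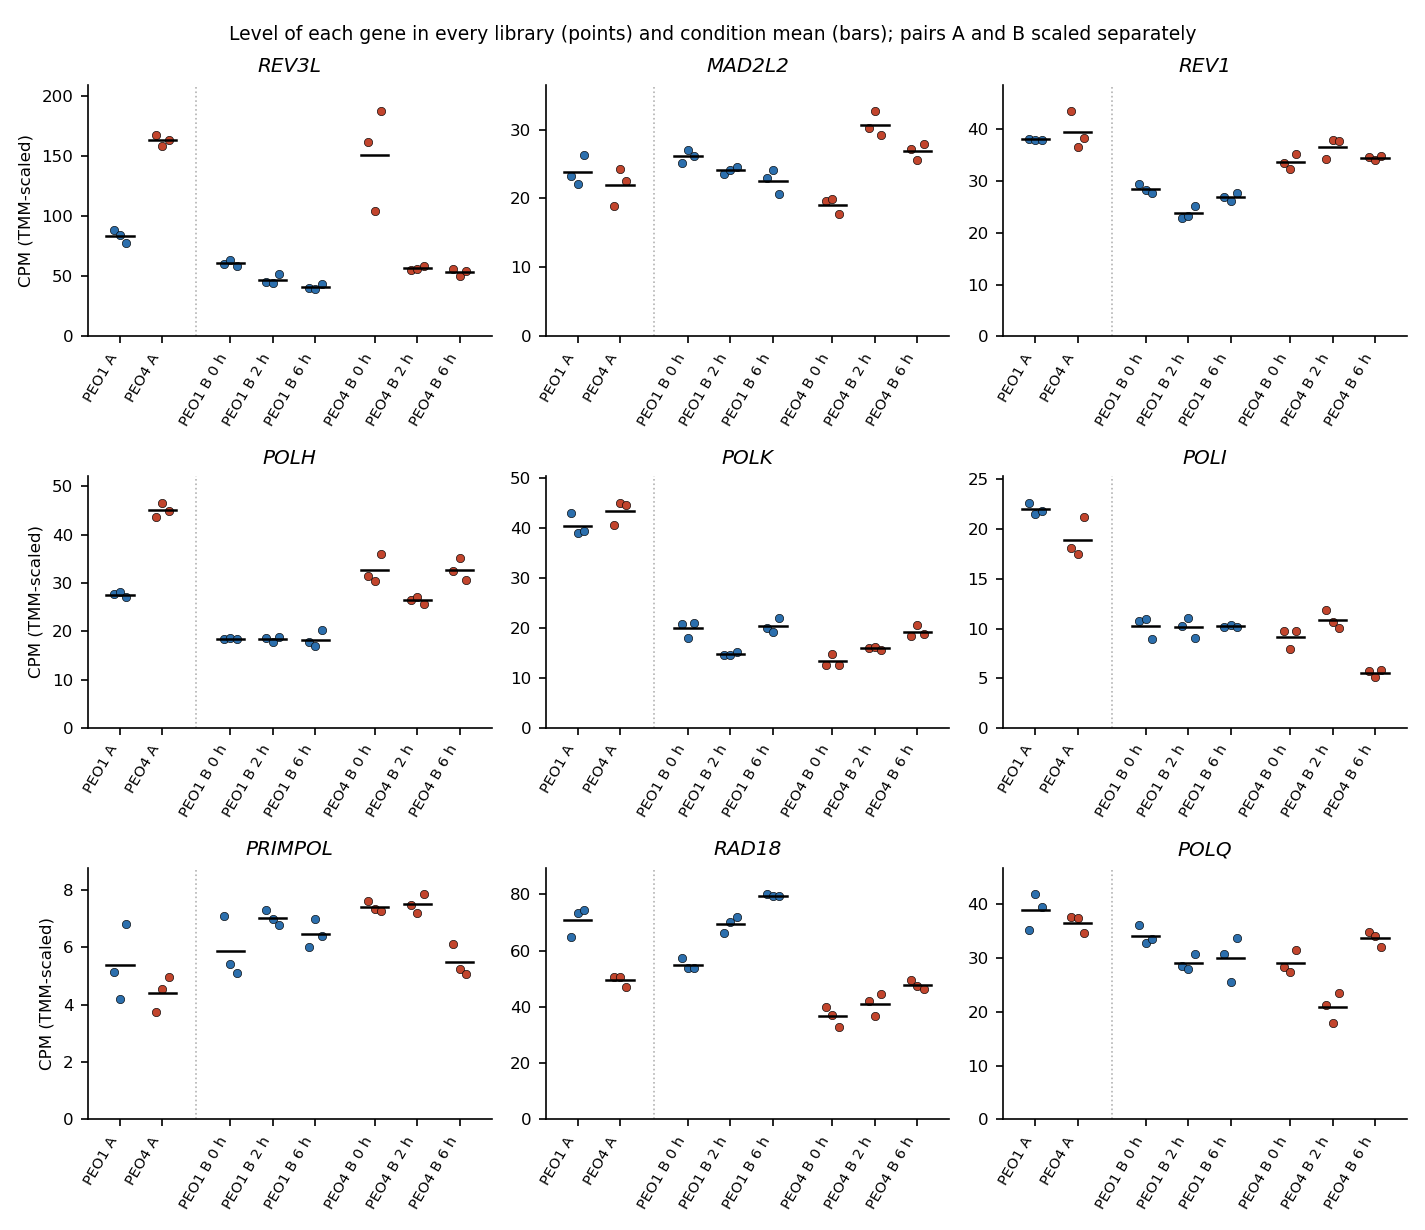
CPM (vertical axes, from 0, TMM-scaled within each pair) of the 9 genes in each of the 24 libraries (points: blue PEO1 lines, red PEO4) with the mean of each condition (bars). Untreated PEO4 of pair B carries the highest REV3L levels of its pair and also the widest spread, from 104 to 187 CPM, while all treated PEO4 libraries lie between 50.4 and 58.3 CPM.

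To ask how the lines differ without treatment, PEO4 was compared with its PEO1 counterpart in each pair. In pair A, 3 of the 9 genes differed: REV3L and POLH were higher and RAD18 was lower in PEO4. Over all genes tested, 30.1% were higher and 31.6% lower in PEO4. In pair B, 8 of the 9 differed, with REV3L, POLH, REV1 and PRIMPOL higher and RAD18, POLK, MAD2L2 and POLQ lower in PEO4, where 34.0% of all genes were higher and 34.6% lower. REV3L, POLH and RAD18 were thus called in the same direction in both pairs. The pairs do not share libraries but compare PEO4 with related PEO1 cells. The share of all genes called alike in both pairs was not computed, so this agreement is not set apart from that of other genes. The median log2 fold change of the 9 genes was -0.086 in pair A and -0.16 in pair B, beside medians of -0.0061 and -0.0011 over all genes. A change past 2-fold together with an adjusted p under 0.05 was reached by 0 members in pair A, where 25.8% of all genes reached it, and by REV3L alone in pair B, where 24.8% did.

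After PDS, the 9 genes did not move as 1 group. Without a vehicle group, and with depth moving with treatment, the changes below cannot be told apart from other differences between untreated and treated libraries. In PEO1 BRCA+, RAD18 rose and POLK, REV1 and POLQ fell at 2 h, and RAD18 rose and REV3L and MAD2L2 fell at 6 h. Over all genes, 26.4% rose and 26.2% fell at 2 h, and 27.0% rose and 26.0% fell at 6 h. In PEO4, 7 of the 9 passed the test at each time: MAD2L2, POLK and RAD18 rose and REV3L fell at both, POLI rose at 2 h and fell at 6 h, POLQ fell at 2 h and rose at 6 h, POLH fell at 2 h, and PRIMPOL fell at 6 h. Among all genes of PEO4, 33.3% rose and 32% fell at 2 h, and 34.6% rose and 35.2% fell at 6 h, so 7 of 9 is near the sum of these shares. REV3L in PEO4 was the only member past 2-fold after PDS, at both times, against 17.4% of all genes at 2 h and 22.6% at 6 h. In PEO1 BRCA+ no member reached 2-fold, against 7.57% and 8.13% of all genes. Scaling by library totals, which moves the median of all genes by -0.17 in PEO1 BRCA+ at both times and by -0.13 at 2 h and -0.19 at 6 h in PEO4, gave 2838 genes that rose and 6342 that fell in PEO1 BRCA+ at 2 h, 2977 and 6290 at 6 h, and 4431 and 6762 at 2 h and 4519 and 7400 at 6 h in PEO4, where TMM scaling gave 4489 and 4458, 4593 and 4431, 5675 and 5447, and 5883 and 5998. With upper-quartile scaling PEO1 BRCA+ had 3567 and 5391 at 2 h and 3575 and 5543 at 6 h. The members' counts in PEO4 at 2 h also depend on scaling: with library totals or upper-quartile scaling, or with libraries thinned to 1 depth, 4 members passed in place of 7, since the rises of POLK, POLI and RAD18 no longer did. With DESeq2 size factors, the DESeq2 Wald test or a filter at 1 CPM 5 passed, without POLI and RAD18.

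**Figure D2:**
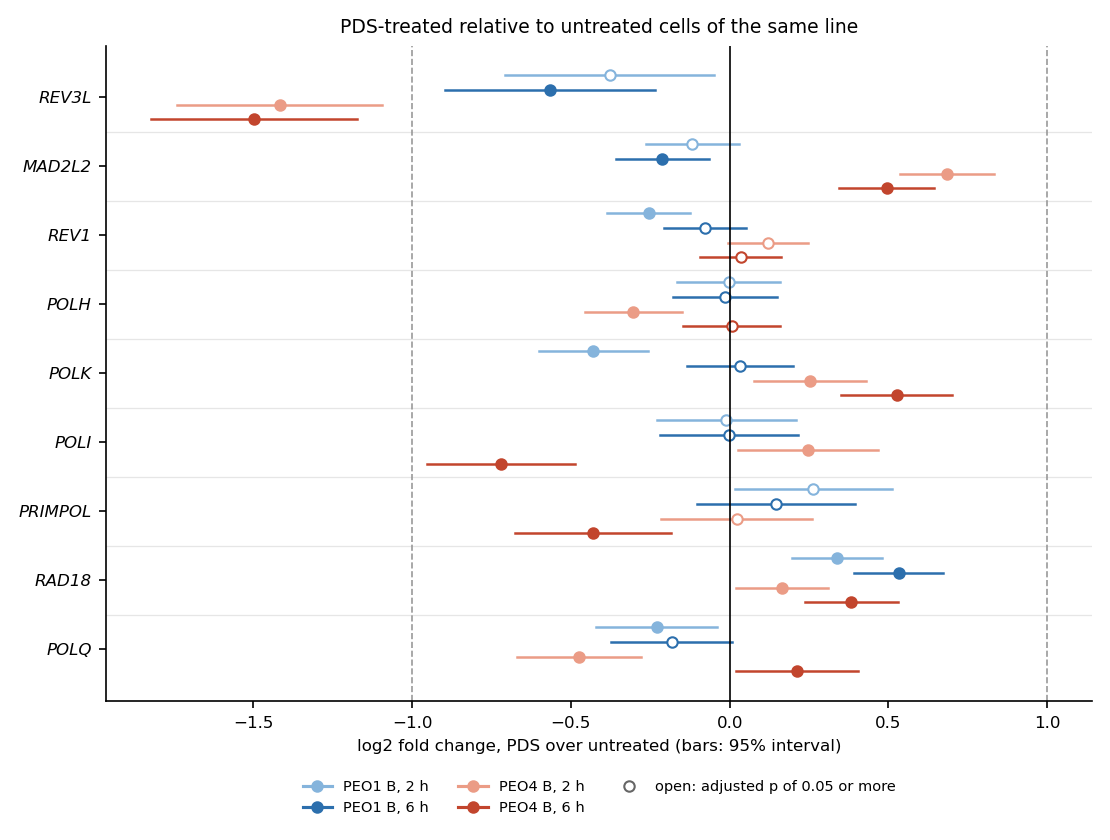
Log2 fold change (horizontal axis, PDS over untreated) of each gene in PEO1 BRCA+ (written PEO1 B, blue) and PEO4 (red) at 2 and 6 h, with 95% intervals as bars, filled points for an adjusted p under 0.05, and dashed lines at 2-fold. REV3L in PEO4 lies past the 2-fold line at both times, at -1.42 and -1.50, and MAD2L2 lies on opposite sides of 0 in the 2 lines.

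REV3L, the catalytic subunit of polymerase zeta (minus strand of chromosome 6), gave the largest differences. In pair A it stood at 88.1, 84.3 and 77.7 CPM in the 3 libraries of PEO1 and at 167, 158 and 163 CPM in those of PEO4. The groups did not overlap, and the level was 1.96-fold higher in PEO4 (log2 fold change 0.97 ± 0.073, adjusted p = 1.82e-07). In untreated pair B it was 60.4, 63.7 and 58.6 CPM in PEO1 BRCA+ and 161, 104 and 187 CPM in PEO4. Replicate 2 of PEO4 was the low library of its group but still lay above all of PEO1 BRCA+. The level was 2.48-fold higher in PEO4 (log2 fold change 1.31 ± 0.15, adjusted p = 2.47e-06), and without that replicate the log2 fold change was 1.52. With PDS, REV3L in PEO4 stood at 55.1, 56.1 and 58.3 CPM at 2 h and 55.8, 50.4 and 54.0 CPM at 6 h. Every treated PEO4 library lay below every untreated one, and REV3L fell 2.67-fold at 2 h (log2 fold change -1.42 ± 0.15, adjusted p = 1.16e-06) and 2.82-fold at 6 h (log2 fold change -1.50 ± 0.15, adjusted p = 5.14e-07). Without replicate 2 of untreated PEO4 these values were -1.62 and -1.70. Errors in pair B were estimated over all 18 libraries, so the spread of untreated PEO4 (SD 42.4 CPM) entered every REV3L test of the main fit. In PEO1 BRCA+ the levels were 45.02, 44.03 and 51.7 CPM at 2 h and 39.9, 39.8 and 43.8 CPM at 6 h. The fall passed the test at 6 h (log2 fold change -0.57 ± 0.15, adjusted p = 0.00663) and did not at 2 h (log2 fold change -0.38 ± 0.15, adjusted p = 0.0521). That 2 h value passed without replicate 3 of PEO1 BRCA+ at 2 h (adjusted p = 0.0496) and without replicate 2 (adjusted p = 4.21e-05) or 3 (adjusted p = 0.0155) of untreated PEO4, and under 6 other settings, at adjusted p between 4.86e-06 (only the 2 conditions fitted) and 0.0379 (filter at 1 CPM).

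After treatment the lines lay closer for REV3L. The log2 difference between PEO4 and PEO1 BRCA+ was 0.27 ± 0.15 at 2 h (adjusted p = 0.124) and 0.38 ± 0.15 at 6 h (adjusted p = 0.0401). The groups did not overlap at either time. The 2 h difference passed the test without replicate 2 of untreated PEO4 (0.27, adjusted p = 7.96e-04) and with only the 2 conditions fitted (0.26, adjusted p = 0.00291). The 6 h call was lost, at adjusted p between 0.0502 and 0.103, without replicate 1 of PEO1 BRCA+ at 2 h, any replicate of PEO1 BRCA+ at 6 h, any replicate of PEO4 at 2 h, or replicate 1 or 3 of PEO4 at 6 h, and at adjusted p between 0.0518 and 0.0654 with library totals, upper-quartile scaling, no filter or thinned libraries. TRAF3IP2-AS1, a gene that overlaps REV3L on the other strand, also fell in PEO4 (log2 fold change -0.61, adjusted p = 4.69e-04 at 2 h and -1.05, adjusted p = 5.29e-07 at 6 h) and in PEO1 BRCA+ (-0.48, adjusted p = 0.0104 at 2 h and -0.52, adjusted p = 0.00563 at 6 h). It was higher in untreated PEO4 of pair B (0.68, adjusted p = 2.26e-04), and its value in pair A was 0.44, adjusted p = 0.0610. How the counting used strand is not given in the sources used here, so reads of the overlap cannot be assigned to 1 of the 2 genes.

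MAD2L2 (minus strand of chromosome 1), which serves polymerase zeta and also the shieldin complex at broken ends, moved in opposite directions in the lines. Untreated PEO1 BRCA+ held 25.2, 27.0 and 26.2 CPM and untreated PEO4 19.6, 19.9 and 17.7 CPM. All PEO4 libraries were below all of PEO1 BRCA+ (log2 fold change -0.45 ± 0.074, adjusted p = 6.92e-06). With PDS, PEO4 rose to 30.3, 32.6 and 29.2 CPM at 2 h and stood at 27.1, 25.6 and 27.8 CPM at 6 h. Every treated library was above every untreated one, and the log2 fold changes were 0.69 ± 0.072 at 2 h (adjusted p = 9.07e-09) and 0.49 ± 0.072 at 6 h (adjusted p = 1.35e-06). PEO1 BRCA+ held 23.5, 24.2 and 24.6 CPM at 2 h and 23.0, 24.1 and 20.7 CPM at 6 h. The change at 2 h was -0.12, adjusted p = 0.168, and passed with library totals (-0.27, adjusted p = 0.00285) or upper-quartile scaling. The fall at 6 h was -0.21, adjusted p = 0.0141, a call lost without replicate 2 of untreated PEO1 BRCA+ (-0.18, adjusted p = 0.0727) or replicate 3 at 6 h (-0.14, adjusted p = 0.121). The order of the lines was thereby turned: PEO4 was higher than PEO1 BRCA+ at 2 h (log2 fold change 0.35 ± 0.068, adjusted p = 6.55e-05) and at 6 h (log2 fold change 0.25 ± 0.069, adjusted p = 0.00230). In pair A the levels were 23.2, 22.2 and 26.3 CPM in PEO1 and 18.9, 24.3 and 22.5 CPM in PEO4, which overlapped (log2 fold change -0.13 ± 0.12, adjusted p = 0.343).

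REV1, a deoxycytidyl transferase that also scaffolds the other translesion polymerases, lies on the minus strand of chromosome 2. In untreated pair B it stood at 29.4, 28.3 and 27.6 CPM in PEO1 BRCA+ and at 33.4, 32.4 and 35.2 CPM in PEO4. The groups did not overlap and PEO4 was higher (log2 fold change 0.25 ± 0.064, adjusted p = 0.00149). At 2 h of PDS the levels were 22.9, 23.3 and 25.2 CPM in PEO1 BRCA+, a fall (log2 fold change -0.25 ± 0.063, adjusted p = 0.00160), and 34.2, 37.9 and 37.8 CPM in PEO4, where the change was 0.12, adjusted p = 0.0868 and passed without replicate 1 of PEO4 at 2 h (0.17, adjusted p = 0.0308). At 6 h they were 26.9 ± 0.756 (SD, n = 3) in PEO1 BRCA+ and 34.5 ± 0.374 in PEO4. Neither change from untreated cells at 6 h passed the test (-0.077, adjusted p = 0.315 in PEO1 BRCA+ and 0.035, adjusted p = 0.631 in PEO4), though with library totals (-0.22, adjusted p = 0.00564) or upper-quartile scaling that of PEO1 BRCA+ did. PEO4 was higher than PEO1 BRCA+ at both times, by 0.62 ± 0.061 at 2 h and 0.36 ± 0.061 at 6 h. In pair A the means were 38.0 ± 0.103 and 39.4 ± 3.58 CPM, and the difference did not pass the test (log2 fold change 0.054 ± 0.087, adjusted p = 0.612). EIF5B, which overlaps REV1, rose with PDS in PEO1 BRCA+ (log2 fold change 0.52, adjusted p = 1.04e-06 at 2 h and 0.58, adjusted p = 2.26e-07 at 6 h) and in PEO4 (0.84, adjusted p = 2.00e-10 and 0.999, adjusted p = 6.28e-12), and was lower in PEO4 of pair A (-0.22, adjusted p = 0.0182), with a value of -0.13, adjusted p = 0.117 in untreated pair B. Its part in the REV1 counts was not tested.

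POLH, the polymerase that copies past ultraviolet and cisplatin lesions, was higher in PEO4 in every comparison of the lines. It was 27.6, 28.2 and 27.0 CPM in PEO1 and 43.7, 46.5 and 44.9 CPM in PEO4 of pair A, without overlap (log2 fold change 0.71 ± 0.079, adjusted p = 6.81e-06). In untreated pair B it was 18.4, 18.6 and 18.4 CPM in PEO1 BRCA+ and 31.5, 30.3 and 36.0 CPM in PEO4 (log2 fold change 0.82 ± 0.079, adjusted p = 1.21e-09). PEO1 BRCA+ stayed between 17.0 and 20.2 CPM in all treated libraries, with log2 fold changes of -0.0031 at 2 h (95% interval -0.17 to 0.16) and -0.014 at 6 h (95% interval -0.18 to 0.15). PEO4 fell to 26.6, 27.1 and 25.7 CPM at 2 h (log2 fold change -0.30 ± 0.074, adjusted p = 9.42e-04) and was back at 32.5, 35.1 and 30.7 CPM at 6 h, where the difference from untreated was 0.0059 (95% interval -0.15 to 0.16). The lines differed by 0.52 ± 0.075 at 2 h and 0.84 ± 0.074 at 6 h. GTPBP2, which overlaps POLH, was also higher in PEO4 of both pairs (log2 fold change 1.68, adjusted p = 2.26e-09 in pair A and 1.5, adjusted p = 2.58e-16 in pair B), and the share of POLH reads that the overlap could hold was not tested.

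POLK, which inserts opposite bulky guanine adducts and extends mismatched ends, showed opposite early responses. In untreated pair B it was 20.8, 18.1 and 21.0 CPM in PEO1 BRCA+ and 12.6, 14.9 and 12.6 CPM in PEO4, lower in PEO4 without overlap (log2 fold change -0.58 ± 0.087, adjusted p = 2.07e-06). PEO1 BRCA+ fell to 14.5, 14.6 and 15.3 CPM at 2 h (log2 fold change -0.43 ± 0.083, adjusted p = 1.15e-04) and was at 20.1, 19.1 and 21.9 CPM at 6 h (0.032, adjusted p = 0.762 from untreated). The rise from 2 to 6 h passed the test (log2 fold change 0.46 ± 0.08, adjusted p = 7.09e-04). PEO4 instead rose to 15.9, 16.1 and 15.6 CPM at 2 h (log2 fold change 0.25 ± 0.085, adjusted p = 0.0119) and 18.4, 20.6 and 18.7 CPM at 6 h (log2 fold change 0.53 ± 0.085, adjusted p = 5.41e-06). The 2 h rise was lost without replicate 1 (0.21, adjusted p = 0.0581) or 3 (0.21, adjusted p = 0.0541) of untreated PEO4, and with library totals, upper-quartile scaling, thinned libraries or only the 2 conditions fitted, at adjusted p between 0.0546 and 0.211. After PDS the lines overlapped at 6 h, with log2 differences of 0.10 ± 0.081 at 2 h and -0.085 ± 0.079 at 6 h, neither past the test. In pair A the means were 40.4 ± 2.25 CPM in PEO1 and 43.4 ± 2.44 CPM in PEO4 (log2 fold change 0.10 ± 0.083, adjusted p = 0.306). CERT1, whose start overlaps that of POLK, was lower in untreated PEO4 of pair B (log2 fold change -0.72, adjusted p = 1.97e-09) and rose in PEO4 at 6 h (0.26, adjusted p = 0.00200), while its values were 0.089, adjusted p = 0.465 in pair A, -0.045, adjusted p = 0.593 in PEO1 BRCA+ at 2 h and -0.078, adjusted p = 0.340 in PEO4 at 2 h. The share of POLK reads that the overlap could hold was not tested.

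POLI, an error-prone inserter related to POLH, changed with PDS in PEO4 and not detectably in PEO1 BRCA+. Untreated levels were 10.7, 11.0 and 8.96 CPM in PEO1 BRCA+ and 9.78, 7.99 and 9.72 CPM in PEO4, which overlapped (log2 fold change -0.16 ± 0.11, adjusted p = 0.221). PEO4 held 11.9, 10.7 and 10.1 CPM at 2 h and 5.70, 5.13 and 5.87 CPM at 6 h. All 6 h libraries were below all others of pair B, 1.65-fold under untreated PEO4 (log2 fold change -0.72 ± 0.11, adjusted p = 3.93e-06) and 1.95-fold under PEO4 at 2 h (log2 fold change -0.97 ± 0.11, adjusted p = 3.75e-08). The rise at 2 h was small (log2 fold change 0.25 ± 0.11, adjusted p = 0.0465) and was lost, at adjusted p between 0.0502 and 0.219, without replicate 1 of PEO1 BRCA+ at 2 h, replicate 1 or 2 of PEO1 BRCA+ at 6 h, replicate 2 of untreated PEO4, replicate 1 or 2 of PEO4 at 2 h, or replicate 1 of PEO4 at 6 h. It was also lost under 7 other settings, from 0.12 with library totals (adjusted p = 0.357) to 0.24 in thinned libraries (adjusted p = 0.0830), among them DESeq2 size factors, the DESeq2 Wald test, the filter at 1 CPM and the fit of only the 2 conditions. In PEO1 BRCA+ the log2 fold changes were -0.011 at 2 h (95% interval -0.23 to 0.21) and -0.0022 at 6 h (95% interval -0.22 to 0.22). At 6 h PEO4 was 1.83-fold lower than PEO1 BRCA+ (log2 fold change -0.87 ± 0.11, adjusted p = 9.29e-08), and at 2 h the difference was 0.10, adjusted p = 0.373. In pair A, POLI was 22.6, 21.5 and 21.8 CPM in PEO1 and 18.1, 17.5 and 21.2 CPM in PEO4, without overlap but short of the test (log2 fold change -0.22 ± 0.10, adjusted p = 0.0885), and it passed without replicate 3 of PEO4 (-0.30, adjusted p = 0.0315).

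PRIMPOL, a primase-polymerase that restarts forks beyond a block, had between 116 and 363 counts per library, and POLI, with 159 to 1175, had fewer than PRIMPOL in replicates 1 and 2 of PEO4 at 6 h. Untreated PEO1 BRCA+ held 7.09, 5.41 and 5.09 CPM and untreated PEO4 7.62, 7.33 and 7.28 CPM. PEO4 was higher (log2 fold change 0.34 ± 0.12, adjusted p = 0.0170), a call lost with only the 2 conditions fitted (adjusted p = 0.0618) and without replicate 2 (0.29, adjusted p = 0.0718) or 3 (0.25, adjusted p = 0.101) of untreated PEO1 BRCA+. In PEO4 it stood at 7.50, 7.22 and 7.85 CPM at 2 h and 6.13, 5.25 and 5.06 CPM at 6 h. The 6 h libraries were below all untreated and all 2 h libraries (log2 fold change -0.43 ± 0.12, adjusted p = 0.00241 from untreated), and the 2 h change was 0.022, adjusted p = 0.877. In PEO1 BRCA+ the log2 fold changes were 0.26, adjusted p = 0.0671 at 2 h and 0.15, adjusted p = 0.319 at 6 h, and without replicate 1 of untreated PEO1 BRCA+ both passed the test (0.42, adjusted p = 0.00642, and 0.31, adjusted p = 0.0424). The lines differed by 0.10, adjusted p = 0.418 at 2 h and by -0.23, adjusted p = 0.0735 at 6 h, and the latter passed without replicate 1 of untreated PEO1 BRCA+ (-0.23, adjusted p = 0.0487) or of PEO4 at 6 h (-0.33, adjusted p = 0.0316). In pair A the means were 5.39 ± 1.33 and 4.43 ± 0.611 CPM (log2 fold change -0.30 ± 0.20, adjusted p = 0.227). CENPU, which overlaps PRIMPOL, was lower in untreated PEO4 of pair A (log2 fold change -0.75, adjusted p = 8.45e-05) and pair B (-0.32, adjusted p = 0.00111) and rose with PDS in PEO1 BRCA+ (0.56, adjusted p = 1.22e-06 at 2 h and 0.66, adjusted p = 9.44e-08 at 6 h) and in PEO4 (0.71, adjusted p = 1.81e-08 at 2 h and 0.43, adjusted p = 2.80e-05 at 6 h). Its part in the PRIMPOL counts was not tested.

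RAD18, the ubiquitin ligase that marks PCNA, was lower in PEO4 in all 4 comparisons of the lines and rose with PDS in both. In pair A it was 65.0, 73.4 and 74.6 CPM in PEO1 and 50.7, 50.8 and 47.0 CPM in PEO4, without overlap (log2 fold change -0.52 ± 0.08, adjusted p = 1.03e-04). Untreated PEO1 BRCA+ held 57.5, 53.8 and 53.9 CPM and untreated PEO4 40.0, 37.3 and 32.9 CPM (log2 fold change -0.58 ± 0.072, adjusted p = 9.01e-08). PEO1 BRCA+ rose to 66.5, 70.2 and 72.0 CPM at 2 h (log2 fold change 0.34 ± 0.068, adjusted p = 2.01e-04) and 79.98, 79.4 and 79.4 CPM at 6 h (log2 fold change 0.53 ± 0.068, adjusted p = 4.92e-07). The 3 time points of PEO1 BRCA+ did not overlap. PEO4 stood at 42.2, 36.7 and 44.5 CPM at 2 h, which overlapped untreated cells (log2 fold change 0.16 ± 0.071, adjusted p = 0.0447), and at 49.6, 47.4 and 46.5 CPM at 6 h (log2 fold change 0.38 ± 0.071, adjusted p = 3.54e-05). The 2 h call in PEO4 was lost, at adjusted p between 0.0509 and 0.266, without replicate 2 of PEO1 BRCA+ at 2 h, replicate 2 or 3 of untreated PEO4, replicate 1 or 3 of PEO4 at 2 h, or replicate 2 of PEO4 at 6 h. The same 7 settings that ended the POLI call ended it too, at values from 0.036 with library totals (adjusted p = 0.654) to 0.15 with only the 2 conditions fitted (adjusted p = 0.215). The difference between the lines was -0.76 ± 0.068 at 2 h and -0.73 ± 0.068 at 6 h, 1.69-fold and 1.66-fold lower in PEO4.

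POLQ, polymerase theta, differed little between the lines without treatment. In pair A it was 35.1, 41.8 and 39.6 CPM in BRCA2-deficient PEO1 and 37.5, 37.5 and 34.7 CPM in PEO4, which overlapped (log2 fold change -0.086 ± 0.09, adjusted p = 0.424, 95% interval -0.28 to 0.11). In untreated pair B it was 36.0, 32.8 and 33.5 CPM in PEO1 BRCA+ and 28.4, 27.4 and 31.5 CPM in PEO4 (log2 fold change -0.23 ± 0.095, adjusted p = 0.0367). That call was lost, at adjusted p between 0.0584 and 0.134, without replicate 1 or 3 of untreated PEO1 BRCA+ or replicate 1 or 2 of untreated PEO4, and by the DESeq2 Wald test (adjusted p = 0.0514). In PEO4 with PDS, POLQ stood at 21.3, 17.9 and 23.5 CPM at 2 h (log2 fold change -0.47 ± 0.095, adjusted p = 1.16e-04) and at 34.8, 34.2 and 32.1 CPM at 6 h. All 6 h libraries were above all 2 h libraries, 1.61-fold (log2 fold change 0.69 ± 0.092, adjusted p = 7.63e-07). The 6 h level was slightly above untreated (log2 fold change 0.21 ± 0.093, adjusted p = 0.0453), a call lost, at adjusted p between 0.0860 and 0.120, without replicate 1 or 2 of untreated PEO4 or of PEO4 at 6 h, and under 6 other settings, from 0.052 with library totals (adjusted p = 0.637) to 0.20 by the DESeq2 Wald test (adjusted p = 0.0940). PEO1 BRCA+ held 28.6, 27.9 and 30.7 CPM at 2 h (log2 fold change -0.23 ± 0.092, adjusted p = 0.0405) and 30.6, 25.6 and 33.7 CPM at 6 h (log2 fold change -0.18 ± 0.092, adjusted p = 0.0993). The 2 h call in PEO1 BRCA+ was lost, at adjusted p between 0.0526 and 0.168, without any replicate of untreated PEO1 BRCA+, replicate 1 or 2 at 2 h, replicate 1 at 6 h, or, in PEO4, replicate 1 untreated, replicate 1 at 2 h or any replicate at 6 h, and at adjusted p between 0.0524 and 0.0593 by the DESeq2 Wald test, without a filter or in thinned libraries. The 6 h value passed with library totals (-0.33, adjusted p = 0.00499) and upper-quartile scaling, and without replicate 3 of PEO1 BRCA+ at 6 h (-0.26, adjusted p = 0.0271). Between the lines the log2 difference was -0.47, adjusted p = 6.80e-05 at 2 h and 0.17, adjusted p = 0.103 at 6 h, and the latter passed without replicate 3 of PEO1 BRCA+ at 6 h (0.26, adjusted p = 0.0201).

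**Figure D3:**
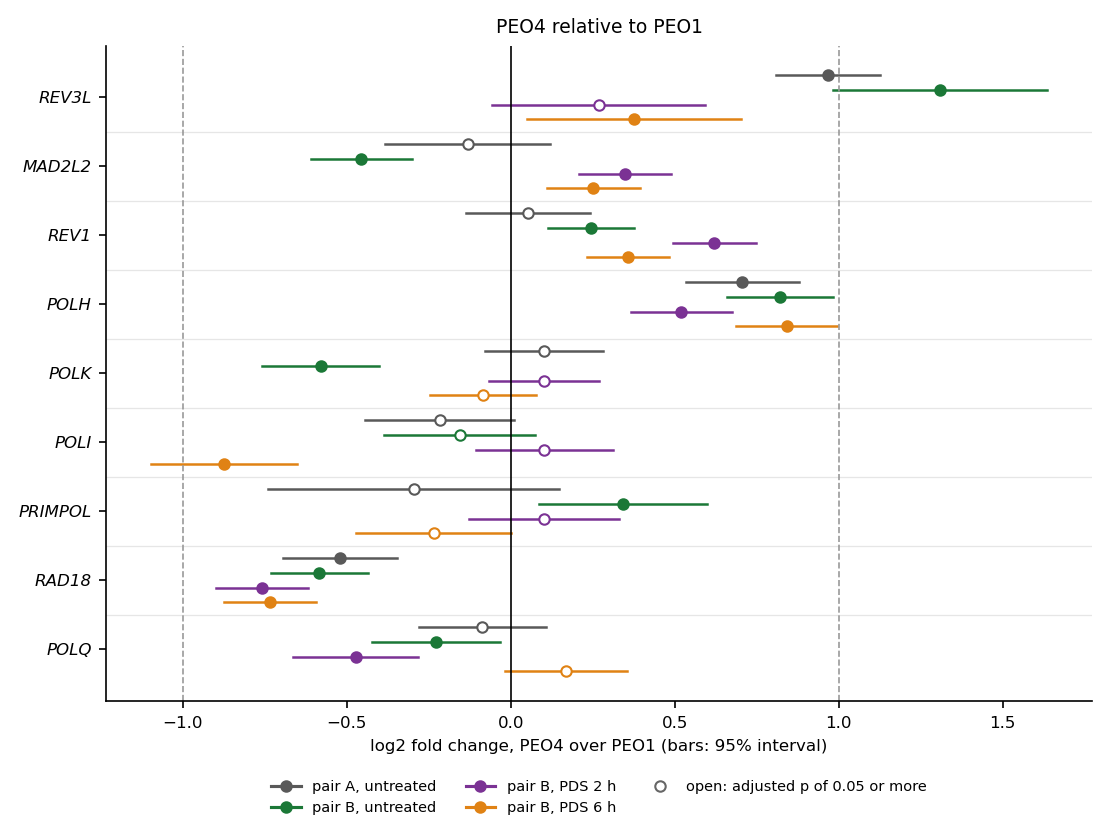
Log2 fold change (horizontal axis, PEO4 over PEO1) of each gene in untreated pair A (grey) and in pair B untreated (green), at 2 h (purple) and at 6 h (orange) of PDS, with 95% intervals as bars, filled points for an adjusted p under 0.05, and dashed lines at 2-fold. POLH lies to the right and RAD18 to the left of 0 in all 4 comparisons, and REV3L moves from 1.31 in untreated pair B to 0.27 and 0.38 after PDS.

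With treatment, 5 of the 9 genes differed between the lines of pair B at 2 h, 3 higher and 2 lower in PEO4, and 6 at 6 h, 4 higher and 2 lower. Over all genes, 37.0% were higher and 35.8% lower at 2 h, with 26.5% past 2-fold, and 34.0% were higher and 34.7% lower at 6 h, with 23.0% past 2-fold, which no member was at either time. Between 2 and 6 h of PDS, PEO1 BRCA+ changed in 1 member, the rise of POLK, where 3.96% of all genes rose, 2.98% fell and 0.170% passed 2-fold. The number of genes behind these shares, 674 that rose and 508 that fell, dropped to between 569 and 695 in all when replicate 1, 2 or 3 of PEO1 BRCA+ at 2 h or replicate 1 or 2 at 6 h was left out. RAD18 rose by 0.19, adjusted p = 0.0804 in the same comparison and passed without replicate 3 of untreated PEO4 (adjusted p = 0.0378) or replicate 2 of PEO4 at 2 h (adjusted p = 0.0364), which made the count 2. PEO4 changed in 7 members between 2 and 6 h: POLQ, POLH, POLK and RAD18 rose and POLI, PRIMPOL and MAD2L2 fell, where 28.9% of all genes rose, 31.3% fell and 12.0% passed 2-fold. The fall of MAD2L2 (-0.19, adjusted p = 0.0177) was lost without replicate 2 of PEO4 at 2 h (-0.14, adjusted p = 0.105) or at 6 h (-0.15, adjusted p = 0.0993) and in thinned libraries (adjusted p = 0.0634), and the rise of RAD18 (0.22, adjusted p = 0.00822) without replicate 2 at 2 h (0.15, adjusted p = 0.0694).

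Whether the change with PDS differed between the 2 lines was tested by the interaction of line and treatment. At 2 h, 5 of the 9 genes differed in response: MAD2L2 (log2 fold change 0.80 ± 0.10, adjusted p = 8.21e-07), POLK (log2 fold change 0.68 ± 0.12, adjusted p = 6.65e-05) and REV1 (log2 fold change 0.38 ± 0.088, adjusted p = 0.00159) responded more positively in PEO4, and REV3L (log2 fold change -1.04 ± 0.21, adjusted p = 0.00157) and POLH (log2 fold change -0.30 ± 0.11, adjusted p = 0.0319) more negatively. The POLH difference was lost, at adjusted p between 0.0507 and 0.107, without replicate 3 of either line, untreated or at 2 h, and at 0.0574 with library totals and 0.0527 in thinned libraries. Over all genes, 19.3% responded more positively and 18% more negatively in PEO4, and 11.0% differed past 2-fold, among them REV3L. At 6 h, 6 differed: MAD2L2 (log2 fold change 0.71 ± 0.10, adjusted p = 3.78e-06), POLK (log2 fold change 0.49 ± 0.12, adjusted p = 0.00118) and POLQ (log2 fold change 0.40 ± 0.13, adjusted p = 0.0154) responded more positively, and REV3L (log2 fold change -0.93 ± 0.21, adjusted p = 0.00250), POLI (log2 fold change -0.72 ± 0.15, adjusted p = 4.73e-04) and PRIMPOL (log2 fold change -0.58 ± 0.17, adjusted p = 0.00670) more negatively, with 24.4% and 23.0% of all genes in these directions and 14.8% past 2-fold. The POLQ difference was lost without replicate 2 of PEO1 BRCA+ at 6 h (0.29, adjusted p = 0.0604). For RAD18, which rose in both lines, no difference in response was detected at 2 h (-0.17, adjusted p = 0.176, 95% interval -0.38 to 0.03) or at 6 h (-0.15, adjusted p = 0.221, 95% interval -0.35 to 0.053), though the 2 h value passed without replicate 3 of untreated PEO4 (-0.25, adjusted p = 0.0428), as that of POLQ did without replicate 3 of PEO4 at 2 h (-0.35, adjusted p = 0.041).

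The genes that act with these 9 were described from lists of named partners. These lists were chosen with earlier results of these data known, so their shares beside those of all genes are descriptions without a test. The first list held 15 genes: PCNA itself and genes listed as adding, extending, reading or removing ubiquitin on it. Of these, 9 rose and 2 fell in PEO1 BRCA+ at 2 h, and 9 rose and 2 fell at 6 h. In PEO4, 8 rose and 1 fell at 2 h, and 10 rose and 1 fell at 6 h, with median log2 fold changes of 0.26 and 0.47 beside 0 and -0.028 over all genes. Of all genes, 26.4% rose and 26.2% fell in PEO1 BRCA+ at 2 h and 27.0% and 26.0% at 6 h, and 33.3% and 32% in PEO4 at 2 h and 34.6% and 35.2% at 6 h. UBE2V2, a partner of the conjugating enzyme that builds ubiquitin chains on PCNA, led the rises in PEO1 BRCA+ (0.75, adjusted p = 7.69e-10 at 2 h and 0.76, adjusted p = 5.30e-10 at 6 h) and in PEO4 at 2 h (0.79, adjusted p = 9.80e-11). UBE2N, that conjugating enzyme, led in PEO4 at 6 h (0.79, adjusted p = 5.12e-11). ZRANB3, a fork-remodelling translocase that binds chain-modified PCNA, fell most in PEO1 BRCA+ (-0.52, adjusted p = 0.00675 at 2 h and -0.77, adjusted p = 2.10e-04 at 6 h) and in PEO4 at 6 h (-0.53, adjusted p = 0.00281), and SHPRH, a ligase for such chains, fell in PEO4 at 2 h (-0.67, adjusted p = 1.79e-07). Between the untreated lines 2 were higher and 6 lower in PEO4 of pair A, and 3 were higher and 9 lower in pair B, beside 30.1% higher and 31.6% lower of all genes in pair A and 34.0% and 34.6% in pair B. PCNA itself was the most reduced in both (-1.37, adjusted p = 4.10e-08 and -1.17, adjusted p = 2.82e-13), while UBE2N was the most raised in pair A (0.66, adjusted p = 6.03e-06) and UBE2B, the E2 enzyme that works with RAD18, in pair B (0.96, adjusted p = 2.63e-12). Beside the same shares of all genes, 3 of 18 proliferation genes were higher and 10 lower in PEO4 of pair A (median -0.51). In pair B 3 were higher and 7 lower (median -0.053). Their part in these line differences was not tested.

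Of 18 other DNA polymerase genes, 8 rose and 2 fell in PEO1 BRCA+ at 6 h and 8 rose and 2 fell in PEO4, beside 27.0% and 26.0% of all genes in PEO1 BRCA+ and 34.6% and 35.2% in PEO4, which stand beside each 6 h count that follows. At 2 h 8 rose and 3 fell in PEO1 BRCA+ and 9 rose and 6 fell in PEO4. Beside these and each 2 h count that follows stand 26.4% and 26.2% of all genes in PEO1 BRCA+ and 33.3% and 32% in PEO4. At 6 h POLG2, the accessory subunit of the mitochondrial polymerase, rose most in PEO1 BRCA+ (0.57, adjusted p = 1.16e-04), and POLE4, a subunit of polymerase epsilon, in PEO4 (1.21, adjusted p = 5.82e-09). POLN fell most in PEO1 BRCA+ (-0.38, adjusted p = 0.00122) and POLD1, the catalytic subunit of polymerase delta, in PEO4 (-0.41, adjusted p = 1.36e-07). Of 13 genes of polymerase theta-mediated end joining, 6 rose and 2 fell in PEO1 BRCA+ at 6 h, led by the flap nuclease FEN1 (0.87, adjusted p = 8.66e-11) and RHNO1 (-0.19, adjusted p = 0.0143), and 6 rose and 4 fell in PEO4, led by HUS1, part of a checkpoint clamp (0.90, adjusted p = 2.86e-10), and XRCC1, a scaffold of single-strand break repair (-0.89, adjusted p = 5.03e-10). Of 10 shieldin genes and REV7 partners, 7 rose and 1 fell in PEO1 BRCA+, led by SHLD3 (0.68, adjusted p = 2.19e-04) and TP53BP1 (-0.21, adjusted p = 0.00275), and 6 rose and 3 fell in PEO4, led by the ubiquitin ligases RNF8 (0.76, adjusted p = 1.42e-09) and RNF168 (-0.64, adjusted p = 4.40e-09). Of 13 fork checkpoint genes, 4 rose and 3 fell in PEO1 BRCA+, led by RPA3 (0.41, adjusted p = 8.09e-04) and SMARCAL1 (-0.41, adjusted p = 4.45e-05), and 7 rose and 3 fell in PEO4, led by CLSPN, an adaptor of CHK1 activation (1.06, adjusted p = 5.32e-09), and ETAA1, an activator of ATR (-0.52, adjusted p = 1.65e-05). At 2 h, PEO1 BRCA+ had 4 rises and 0 falls in end joining, 6 and 1 in shieldin and 4 and 2 in the checkpoint, and PEO4 had 5 and 2, 4 and 2, and 8 and 3. Of 18 proliferation genes, 11 rose and 0 fell in PEO1 BRCA+ at 2 h, while 5 rose and 4 fell in PEO4 (median 0.024). By the interaction at 2 h, 0 of them responded more positively and 7 more negatively in PEO4, beside 19.3% and 18% of all genes. At 6 h 11 rose and 1 fell in PEO1 BRCA+ and 11 rose and 3 fell in PEO4, and their summed level was 2970.7 to 3063 CPM in untreated, 3635 to 3756 CPM in 2 h and 3543 to 3599 CPM in 6 h PEO1 BRCA+ libraries. In PEO4 it was 2634 to 2876, 2500.5 to 3053 and 3307 to 3336 CPM, so that 2 h libraries overlapped untreated ones. Their part in the members' changes was not tested. Set beside medians of -0.027 and -0.028 over all genes at 6 h, the medians of these 5 lists in PEO1 BRCA+ and PEO4 were 0.15 and 0.10 for polymerases, 0.13 and 0.062 for end joining, 0.25 and 0.35 for shieldin, 0.14 and 0.20 for the checkpoint and 0.30 and 0.36 for proliferation.

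**Figure D4:**
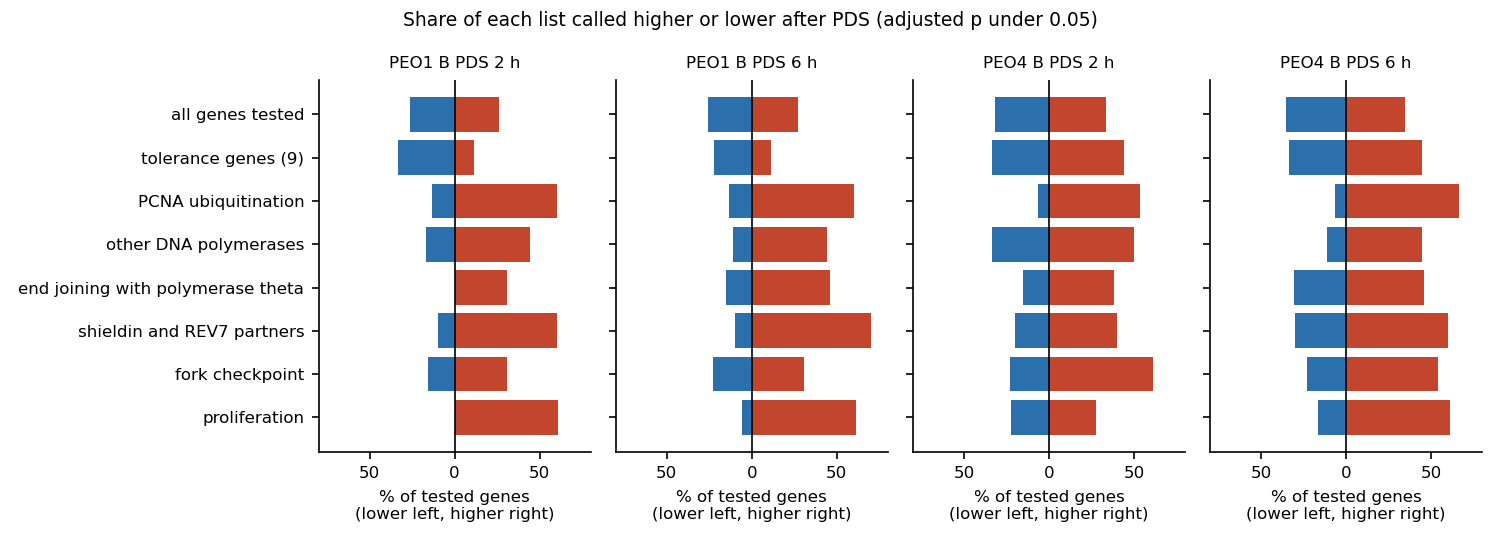
Share of each list's tested genes (horizontal axes, percent) called lower (blue, left) or higher (red, right) at an adjusted p under 0.05 after 2 or 6 h of PDS in PEO1 BRCA+ (PEO1 B) and PEO4, with all genes tested in the top row. In PEO4 at 6 h, 10 of 15 PCNA ubiquitination genes rose and 1 fell, beside 34.6% and 35.2% of all genes. The lists were chosen with earlier results of these data known.

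Across the 18 libraries of pair B, levels of POLH and REV1 ran together (Pearson r of log2 CPM 0.83) and those of RAD18 ran against both (-0.82 with POLH and -0.83 with REV1). These correlations describe libraries that share lines, treatment times and depth, and carry no test. The genes most like each member, by the same r among 9922 genes with a mean log2 CPM of at least 3, were QSER1 (0.97) and POLR1A (0.94) for POLQ, MAPK14 (0.98) and PKP4 (0.98) for POLH, and SRSF10 (0.98) and SENP2 (0.98) for RAD18. For REV3L they were PCDHA10 (0.98) and PCDHA3 (0.97), members of a gene cluster that shares its 3′ exons, so that reads of those exons cannot be assigned to 1 gene. REV1 was nearest to ZNF141 (0.97) and FER1L4 (0.96), MAD2L2 to SCNN1B (0.94) and FBLIM1 (0.93), and POLI to NUCB1 (0.95) and KDELR3 (0.94). POLK and PRIMPOL had looser neighbours, CCDC9B and FGF2 for POLK (both 0.87) and PSIP1 (0.89) and NBDY (0.85) for PRIMPOL.

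Ranked by level over the 6 conditions of pair B, REV3L spanned 3.66-fold from its highest to its lowest mean, RAD18 2.17-fold, POLI 1.96-fold and POLH 1.79-fold, and PRIMPOL spanned the least, 1.37-fold. For REV3L untreated PEO4 came first and untreated PEO1 BRCA+ second, each separated from the next condition in order. RAD18 was highest in PEO1 BRCA+ at 6 h, then at 2 h, then untreated, with no overlap down to the first PEO4 condition. For POLQ, neighbours in the order overlapped from untreated PEO1 BRCA+, the highest, through PEO4 at 6 h, PEO1 BRCA+ at 6 h and untreated PEO4 to PEO1 BRCA+ at 2 h, and PEO4 at 2 h alone stood below the others.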

How the data were processed

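Gene counts from polyA RNA-seq (150 bp paired-end) were deposited by the authors as raw counts in a table for pair A and a table for pair B. Per the labels, reads went through FastQC, fastp, STAR and featureCounts on hg38. Versions, annotation, strand setting and treatment of multi-mapping reads are not given in the sources used here. Each table was fitted on its own with 1 term per condition in edgeR 4.0.16 (R 4.3.3; TMM scaling, robust quasi-likelihood test, filterByExpr with a minimum count of 10 and a minimum total of 15), and p-values were adjusted by Benjamini-Hochberg over the 15882 and 17020 genes tested. Residual degrees of freedom were 4 and 12. The fits were tested on simulated data.

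Total counts per library, between 18699929 and 63882077, set the counting precision, with 116 to 363 counts for PRIMPOL and 1260 to 10860 for REV3L. Lines without readable counts (2 and 1) were left out. All columns were used. Samples were grouped by the labels, and p-values measure the spread between replicate cultures of these lines. In pair B the dispersion of a gene was estimated from all 18 libraries, so each test pools spread over both lines and all times. Same-numbered replicates did not deviate together (correlations of -0.043 to 0.023 in pair A and -0.16 to 0.13 in pair B), so the block was an alternative, as were other scalings, DESeq2 1.42.0, other filters and call rules, thinning to the lowest total, fits of only the 2 conditions, and each library left out. Every member was named in each comparison, and for each list the called gene with the largest rise and fall. The members and lists were chosen with earlier results of these data known. Promoters were read from RefSeq tables (GRCh38.p14), gene lengths from GENCODE.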

Additional observations from a re-analysis of the deposited data

Results flagged for a closer look

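The response to PDS differed between PEO4 and PEO1 BRCA+ by the interaction test for 5 genes at 2 h. Given as the log2 response of PEO4 minus that of PEO1 BRCA+, the differences were -1.04 for REV3L, 0.80 for MAD2L2, 0.68 for POLK, 0.38 for REV1 and -0.30 for POLH. At 6 h they were -0.93 for REV3L, 0.71 for MAD2L2, 0.49 for POLK, 0.40 for POLQ, -0.72 for POLI and -0.58 for PRIMPOL. Depth and the share of ribosomal RNA counts moved with treatment in both lines, and their part in these differences was not tested.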

How the results depend on the processing

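Of 62 calls over the 9 genes and 12 comparisons, 52 kept their direction and their side of the threshold under every other scaling, test, filter, thinning and set of conditions. That count leaves out the fits without 1 library and the stricter call rules. With 1 library left out, 55 of 1836 values lost a call. Those 1836 include values of the 46 results that were not called and so could not lose one. At an adjusted p under 0.01, 12 of the 62 calls were lost. No called value changed sign. All 85 sign changes among 2997 values, 55 of them with 1 library left out, were of values that passed no test in either fit, the largest of them 0.15 in size. The cause of these changes was not tested.

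The 2-fold rule left 0 members in 8 comparisons and 1 (REV3L) in untreated pair B, in PEO4 at 2 and 6 h and in the interaction at 2 h. Members called in PEO1 BRCA+ at 6 h numbered 5 with library totals or upper-quartile scaling, against 3. Between 2 and 6 h in PEO1 BRCA+ they numbered 2 with only those conditions fitted, against 1. In PEO4 at 2 h they numbered 4 with library totals, upper-quartile scaling, an adjusted p under 0.01, thinning or only the 2 conditions, against 7. With 1 library left out, counts of members called ranged from 3 to 4 in pair A, and for the lines of pair B from 6 to 8 untreated, 5 to 6 at 2 h and 5 to 7 at 6 h. For PEO1 BRCA+ they ranged from 3 to 5 at 2 h, 2 to 4 at 6 h and 1 to 2 between the times, for PEO4 from 5 to 7, 6 to 7 and 5 to 7, and for the interaction from 4 to 5 at 2 h and 5 to 6 at 6 h.

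Values that changed sign follow as log2 fold changes. Thinning gave -0.014 for POLK and -0.000048 for PRIMPOL between the lines at 2 h, 0.00087 for POLI in PEO1 BRCA+ at 2 h and -0.10 between its times, -0.037 for PRIMPOL in PEO4 at 2 h and -0.0054 for REV1 at 6 h. Without a filter, PEO1 BRCA+ had 0.014 for POLH and 0.0062 for POLI at 2 h and 0.0036 and 0.016 at 6 h. Library totals gave -0.11 for POLK and -0.00030 for PRIMPOL in PEO1 BRCA+ at 6 h, -0.0082 for REV1 and -0.11 for PRIMPOL in PEO4 at 2 h, and -0.15 for POLH and -0.13 for REV1 at 6 h. Upper-quartile scaling gave -0.056 for POLK in PEO1 BRCA+ at 6 h, -0.00016 for POLI between its times, -0.041 for PRIMPOL in PEO4 at 2 h, -0.11 for POLH and -0.079 for REV1 at 6 h, and -0.0056 for the POLH interaction at 6 h. For POLI between the times of PEO1 BRCA+ and POLH in PEO4 at 6 h, DESeq2 size factors gave -0.0013 and -0.013, the DESeq2 Wald test -0.0016 and -0.011, and the filter at 1 CPM -0.0052 and -0.025. That filter gave -0.010 for PRIMPOL in PEO4 at 2 h, and fitting only the 2 conditions -0.013 for POLH in PEO4 at 6 h.

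With 1 library left out, POLH ranged in PEO1 BRCA+ from -0.013 to 0.031 at 2 h, -0.079 to 0.045 at 6 h and -0.085 to 0.038 between them, in PEO4 at 6 h from -0.037 to 0.088, and in the interaction at 6 h from -0.034 to 0.099. In PEO1 BRCA+, POLI ranged from -0.090 to 0.069 at 2 h, -0.080 to 0.066 at 6 h and -0.061 to 0.077 between them, POLK from -0.025 to 0.085 at 6 h and POLQ from -0.044 to 0.15 between the times. PRIMPOL ranged from -0.0080 to 0.056 in PEO4 at 2 h, and REV1 from -0.018 to 0.11 in pair A.

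With the replicate block, 106 of 108 values kept their side of the threshold, and REV3L at 2 h (-0.38) and POLQ at 6 h (-0.19) in PEO1 BRCA+ gained a call. The numbers do not pair the samples. Over all genes, PEO1 BRCA+ between 2 and 6 h had 674 higher and 508 lower calls, in all 501 at an adjusted p under 0.01, 2336 with only those conditions, and, without 1 of its treated libraries, 569 to 695, or 940 where that was replicate 3 at 6 h. The 2-fold rule left 29 to 4518 calls per comparison. Order by length was recomputed with all exons, chosen after seeing the data. Depth limits the values of PRIMPOL (from 116 counts per library) and POLI (from 159).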
